A study of Mus musculus with 12 samples.

Results

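The genes described are the translation initiation and elongation factors of the mouse, the proteins that bring the ribosome to the start codon and then move it along the messenger. They were chosen by symbol, as every row whose symbol begins with Eif1 to Eif6 or with Eef1 or Eef2, without the eIF2 kinases Eif2ak1 to Eif2ak4 and without Eif4ebp1. The gene family was taken up with results of these libraries already known, so counts over the whole set are given as descriptions. The rule found 63 rows among the 17718 of the count table, and 57 of them passed the filter on low counts and were tested among 13013 genes.

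Expression was measured by bulk RNA-seq in cultured CT26 cells, a line that came from a colon tumour of a BALB/c mouse, as 3 libraries of Mll3 wild-type cells (WT) and 3 libraries of Mll3 knock-out cells (KO). Mll3 is an older name of Kmt2c, a histone methyltransferase of enhancers, and its knock-out is the only allele or treatment that the labels name. The labels do not say whether the knock-out cells are 1 clone or a pool, whether the libraries came from separate cultures, or whether the numbers of the knock-out columns sg1, sg2 and sg3 are replicates or guides. The other 6 samples, CUT&Tag of the cells and single-cell RNA-seq of tumours, are not analysed here.

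The libraries held 9559658 to 13406013 counts. Levels are given in CPM, the counts divided by a scaled library size. Kmt2c, the targeted gene, had 24.9, 26.2 and 25 CPM in wild-type and 16, 11.2 and 14.8 CPM in knock-out libraries, a log2 fold change of -0.87 (SE 0.129), and counts summed over a gene do not locate the edit. As a check of the cell line, the epithelial keratin gene Krt18 stood at 37.8 to 40.5 CPM in wild-type and 105 to 117 CPM in knock-out libraries, Krt8 at 0.0786 to 0.216 and 1.57 to 3.2 CPM, the mesenchymal filament gene Vim at 1511 to 1524 and 2851 to 2968 CPM, and the leukocyte gene Ptprc at 0.0786 to 0.108 and 0.192 to 0.346 CPM.

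Initiation begins when eIF2, bound to GTP, carries the initiator tRNA to the small ribosomal subunit, where eIF1, eIF1A, eIF3 and eIF5 assemble with it. The eIF4F complex binds the cap of the messenger and unwinds its leader, the assembly scans for a start codon, and eIF5B joins the large subunit. In elongation, eEF1A delivers aminoacyl-tRNA and is reloaded with GTP by the other eEF1 subunits, and eEF2 moves the ribosome by a codon.

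Most of the factor genes that passed the test were lower in the knock-out, by small amounts. In bulk RNA, less transcript in every cell and loss from some of the cells cannot be told apart. Of the 57 tested, 31 fell, 12 rose and 14 did not pass the threshold, which was an adjusted p of 0.05 in edgeR's quasi-likelihood test. Among all 13013 genes tested, 66.2% passed, 33.1% as higher and 33.2% as lower. Of the factor genes 75.4% were called, against 66.2% of all genes, in a comparison not matched for level of expression. The factor genes that fell made up 54.4% of the 57 tested and those that rose 21.1%. With a minimum count of 50 in the filter, 3827 of all 10774 genes then tested were higher and 3918 lower. The median log2 fold change of the factor genes was -0.18, beside 0.02 for all genes tested. Under upper-quartile scaling the split became 21 lower and 21 higher and the median -0.025, while the median of all genes moved to 0.17. With library size alone as the scale it was 24 lower and 18 higher with a median of -0.061, while that of all genes moved to 0.14.

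Changes were small in size. Only 11 of the 57 passed both the threshold and a 1.5-fold line, which is 19.3% of them, whereas 33.4% of all genes tested did. Of these 11, 8 were lower and 3 higher. The gene nearest inside the line was Eef1e1, with a log2 fold change of -0.59, and the nearest outside it was Eef1g, with -0.56. The 3 knock-out libraries did not overlap the 3 wild-type libraries for 48 of the 57 factor genes, or 84.2%, beside 68.7% of all genes tested. Neither of these shares was matched for level of expression. All counts assigned to factor genes made up 3.11%, 3.10% and 3.05% of the wild-type libraries and 2.87%, 2.91% and 2.89% of the knock-out libraries. These shares are taken over library size alone and are weighted by the genes with most counts, and their groups do not overlap.

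**Figure D1:**
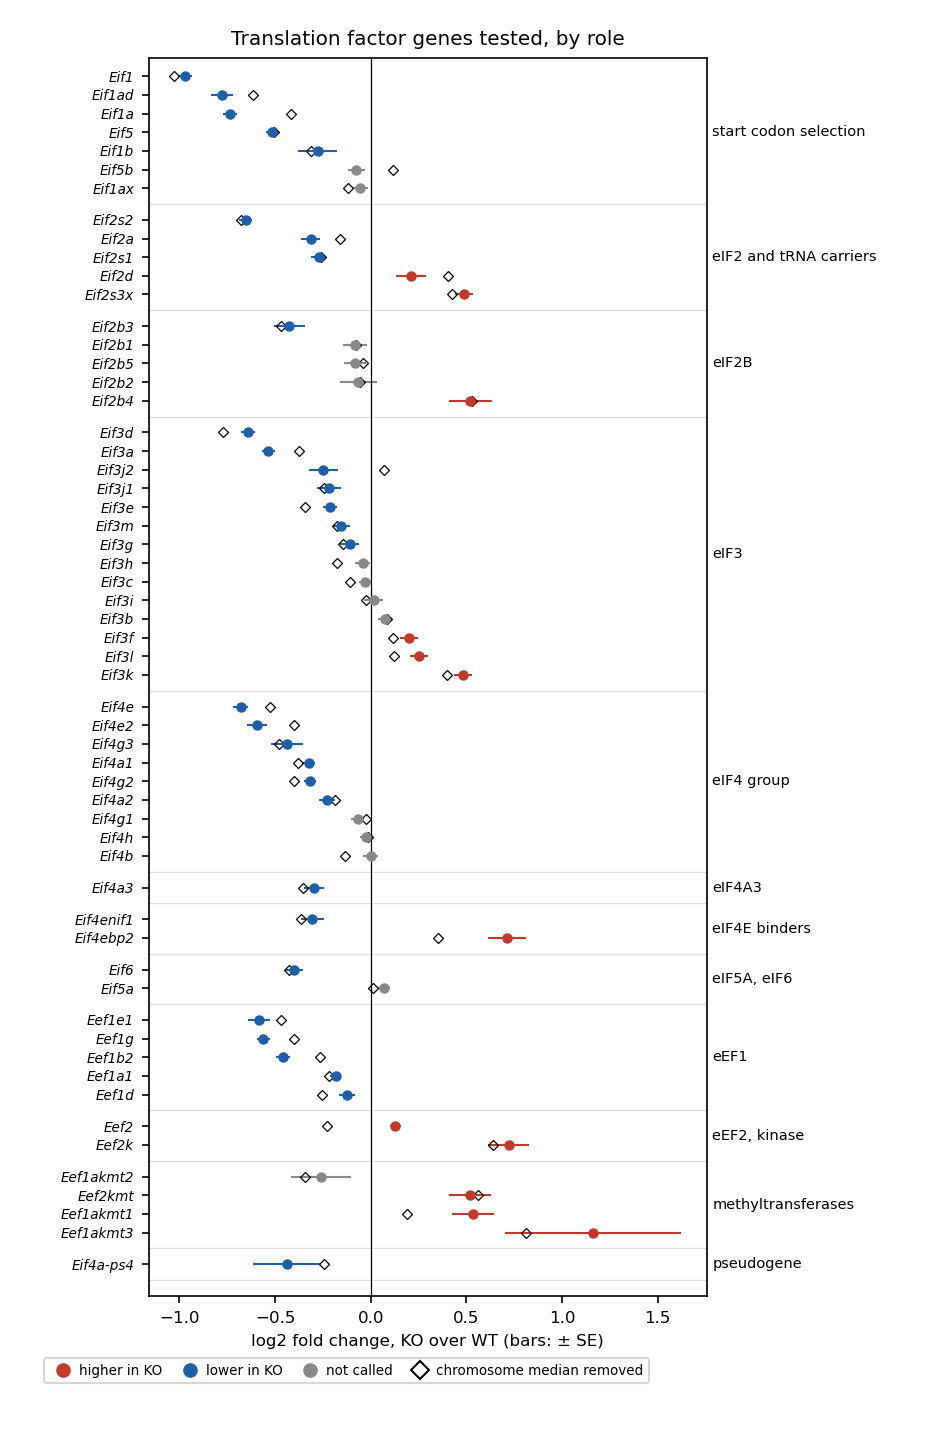
Log2 fold change of each of the 57 tested factor genes, knock-out over wild-type (x axis), grouped by role, with bars for ± SE and open diamonds for the value after the median of the gene's own chromosome was removed. Blue points (31 genes) were lower, red points (12) higher and grey points (14) not called, and the values run from -0.97 for Eif1 to 1.16 for Eef1akmt3.

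By name, the set holds initiation factors (Eif) and elongation factors (Eef). Of 46 tested Eif genes 26 fell and 7 rose, with a median log2 fold change of -0.22, and of 11 tested Eef genes 5 fell and 5 rose, with a median of -0.13. The difference between these groups was not tested, nor was any role group or list below tested as a set. Counts called in them stand beside the 66.2% called of all genes tested.

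The promoters of 7 factor genes, picked by hand from those with and without a motif match, are shown here as examples. Others with a match, among them Eef2k and Eif4e, are not shown. RefSeq starts on GRCm38.p6, the assembly of mm10, were matched by symbol for 45 of the 63 rows, 44 of them tested, and the 250 bases before the start were searched on both strands. The E-box CACGTG, the letters bound by MYC and MITF family proteins, was found before 10 of the 44 (22.7%), beside 9.88% of the 9400 tested genes with a promoter and 6.02% of all 32851 promoters. It occurred before Eef2, Eef2k, Eif3f and Eif3k, which rose, before Eif1b, Eif4a1 and Eif4e, which fell, and before Eif4g1, Eif4h and Eif5a, which were not called. For all 3 motifs, the 44 genes searched held 10 that rose, 22 that fell and 12 not called. The letters TGATGNAA, a form of the element bound by ATF4 with CEBP proteins, were found before Eef2k and Eif2s3x alone, both of which rose. These 2 are 4.55% of the 44, beside 2.38% of the tested genes and 3.45% of all promoters. The gene Atf4 itself fell (log2 fold change -0.79, SE 0.0339, adjusted p = 3.16e-28), and whether ATF4 has a part was not tested. An ETS form, CCGGAAG, was found before 11 of the 44 (25%; 6 lower, 2 higher and 3 not called), beside 16.4% of the tested genes. No match of one of these motifs shared letters with a match of another before any of the 44 genes. A match describes letters only. Each sequence is given 5′ to 3′ on the gene's strand, with the E-box in capitals for the first 5 genes, the reverse complement of TGATGNAA in capitals for Eif2s3x, and none of the 3 motifs in Eif1.
Eif4a1, chr11:69672424-69672673, minus strand: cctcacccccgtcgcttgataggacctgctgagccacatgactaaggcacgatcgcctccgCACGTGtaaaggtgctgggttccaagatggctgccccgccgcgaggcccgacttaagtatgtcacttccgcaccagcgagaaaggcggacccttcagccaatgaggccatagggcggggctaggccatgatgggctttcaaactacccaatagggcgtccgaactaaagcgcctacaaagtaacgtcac
Eif1b, chr9:120492356-120492605, plus strand: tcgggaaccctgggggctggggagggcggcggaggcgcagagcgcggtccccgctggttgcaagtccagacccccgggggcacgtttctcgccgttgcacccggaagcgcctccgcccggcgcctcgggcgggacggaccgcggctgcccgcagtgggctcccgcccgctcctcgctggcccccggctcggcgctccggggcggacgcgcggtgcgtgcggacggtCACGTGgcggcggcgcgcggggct
Eif3f, chr7:108934165-108934414, plus strand: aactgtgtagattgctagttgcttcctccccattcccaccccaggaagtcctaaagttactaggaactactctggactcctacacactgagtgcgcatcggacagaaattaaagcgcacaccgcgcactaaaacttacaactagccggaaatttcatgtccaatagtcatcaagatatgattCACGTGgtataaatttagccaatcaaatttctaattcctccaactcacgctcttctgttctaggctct
Eif3k, chr7:28981889-28982138, minus strand: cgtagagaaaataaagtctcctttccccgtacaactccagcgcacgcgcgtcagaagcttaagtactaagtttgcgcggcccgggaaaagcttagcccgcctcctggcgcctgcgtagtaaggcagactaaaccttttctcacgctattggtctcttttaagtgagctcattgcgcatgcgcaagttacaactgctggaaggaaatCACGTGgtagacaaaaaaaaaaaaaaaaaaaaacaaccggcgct
Eef2, chr10:81176381-81176630, plus strand: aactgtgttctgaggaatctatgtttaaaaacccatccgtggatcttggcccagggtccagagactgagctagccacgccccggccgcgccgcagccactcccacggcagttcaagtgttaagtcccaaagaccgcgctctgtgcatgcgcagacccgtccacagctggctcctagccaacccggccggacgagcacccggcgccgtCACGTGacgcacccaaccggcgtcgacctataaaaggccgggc
Eif2s3x, chrX:94212652-94212901, minus strand: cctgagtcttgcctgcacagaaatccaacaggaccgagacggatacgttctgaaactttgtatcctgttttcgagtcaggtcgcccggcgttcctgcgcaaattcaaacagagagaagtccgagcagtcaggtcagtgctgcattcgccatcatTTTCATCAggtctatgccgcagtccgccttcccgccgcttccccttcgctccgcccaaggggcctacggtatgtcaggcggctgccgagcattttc
Eif1, chr11:100319699-100319948, plus strand: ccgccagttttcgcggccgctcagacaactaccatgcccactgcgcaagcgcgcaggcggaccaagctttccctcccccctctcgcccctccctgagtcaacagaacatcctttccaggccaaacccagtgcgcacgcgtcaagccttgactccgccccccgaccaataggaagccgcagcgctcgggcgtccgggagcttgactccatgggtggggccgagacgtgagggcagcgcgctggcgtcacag

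Eif1, Eif1ad and Eif1a, of the group of start codon selection factors and their relatives, had the 3 lowest log2 fold changes of the 57 in this fit. With chromosome medians removed, Eif1 was still the lowest (-1.03), followed by Eif3d (-0.77) and Eif2s2 (-0.68). Of 7 tested, 5 fell and none rose in this fit, though Eif1ax was called as higher under upper-quartile scaling (0.10, adjusted p = 0.0194). Eif1, the factor that holds the scanning complex open until a start codon is met, stood at 1086, 1083 and 1112 CPM in the wild-type libraries and 591, 519 and 566 CPM in the knock-out libraries (chr11:100319949-100322099). Every knock-out library lay far below every wild-type library, a 1.96-fold fall (log2 fold change -0.97, SE 0.0363, adjusted p = 5.71e-31).

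Eif5, which makes eIF2 hydrolyse its GTP at the start codon, stood at 934, 931 and 859.9 CPM in wild-type and 650.5, 625 and 633 CPM in knock-out libraries (log2 fold change -0.51, SE 0.035, adjusted p = 2.23e-19). Its groups were also well apart, at a smaller fold than Eif1. Eif1ad, whose protein shares a domain with eIF1A and whose human form acts in maturation of the small subunit, stood at 129, 129 and 128 CPM and at 80.4, 74.2 and 70.3 CPM (chr19:5366813-5371518; log2 fold change -0.78, SE 0.0575, adjusted p = 7.55e-18). The wild-type values were nearly level and all 3 knock-out values were lower.

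The eIF1A protein is encoded by Eif1a on chromosome 18 and by Eif1ax on the X chromosome. Eif1a stood at 620.2, 604 and 581 CPM in wild-type and 373, 349.6 and 362 CPM in knock-out libraries, a 1.66-fold fall (log2 fold change -0.73, SE 0.0374, adjusted p = 8.35e-25). Eif1ax stood at 253, 243 and 251 CPM and 242, 237 and 242 CPM (log2 fold change -0.05, SE 0.0415, adjusted p = 0.254). The groups of Eif1ax did not overlap either, but they lay within a few percent and the difference did not pass the threshold. The counts of the pair had a ratio of 2.45, 2.48 and 2.31 in the wild-type and 1.54, 1.48 and 1.50 in the knock-out libraries. Removing chromosome medians gave log2 fold changes of -0.42 for Eif1a and -0.12 for Eif1ax. These near-identical copies can share reads, and how the counting treated such reads is not given in the sources used here.

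Eif1b, a paralogue of Eif1, stood at 29.6, 31.5 and 37.2 CPM in wild-type and 27.5, 26.8 and 26.5 CPM in knock-out libraries (log2 fold change -0.28, SE 0.101, adjusted p = 0.0146). Wild-type replicate 3 was the highest of the 6, and without it the log2 fold change was -0.19 with an adjusted p of 0.117. The call of Eif1b was also lost under upper-quartile scaling (-0.12, adjusted p = 0.305) and with library size alone (-0.16, adjusted p = 0.177). Eif5b, the GTPase of subunit joining, stood at 236, 243 and 238 CPM and 229, 229 and 221 CPM (log2 fold change -0.07, SE 0.042, adjusted p = 0.114) and was not called.

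**Figure D2:**
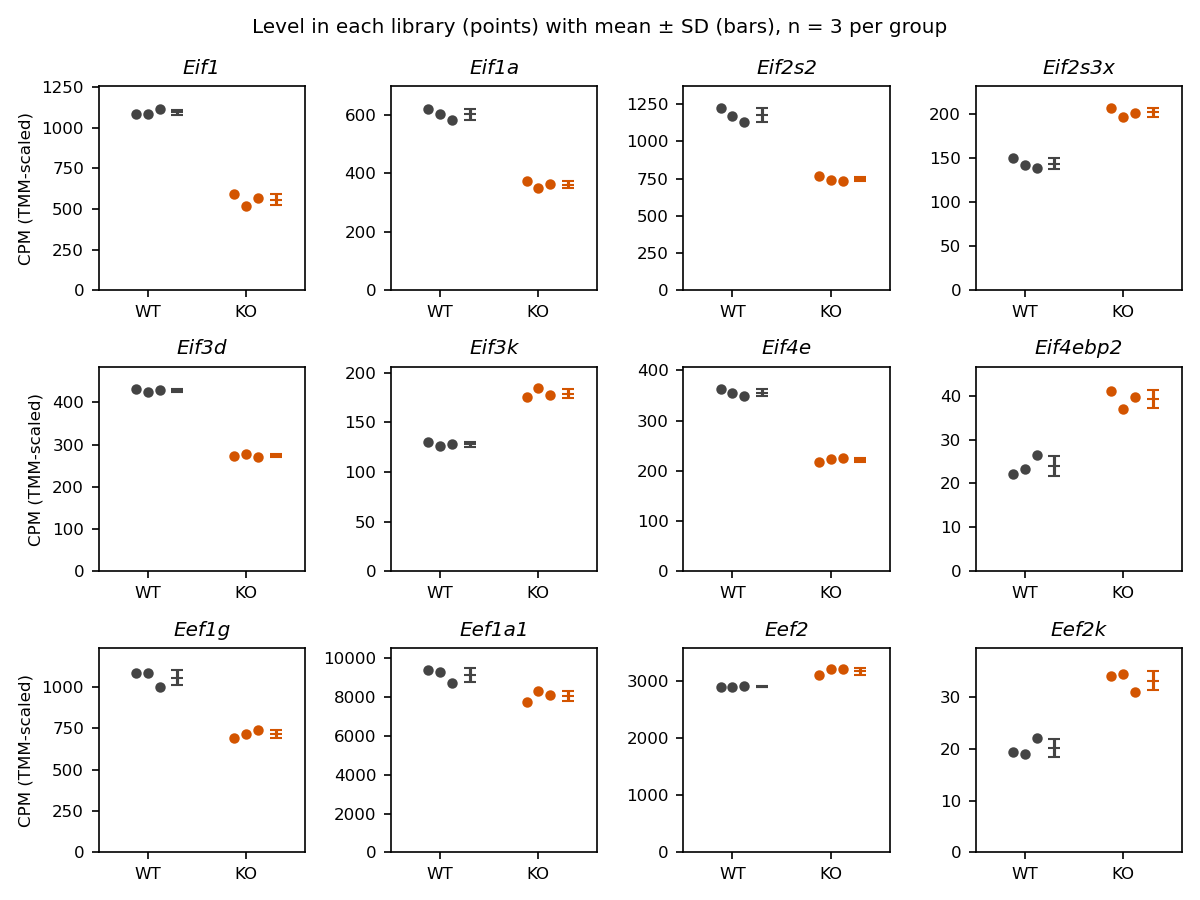
Level of 12 factor genes in each library, as TMM-scaled CPM (y axis, from 0), with points for libraries and bars for mean ± SD over 3 libraries per group. Eif1 fell from a mean of 1094 to 558 CPM and Eif2s2 from 1175 to 747, while Eif2s3x, Eif3k, Eif4ebp2 and Eef2k were higher in all 3 knock-out libraries.

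Subunits of eIF2 moved in opposite directions. Eif2s2, the beta subunit, stood at 1222, 1172 and 1130.3 CPM in wild-type and 765, 739 and 737 CPM in knock-out libraries (chr2:154871410-154892906; log2 fold change -0.65, SE 0.0336, adjusted p = 1.38e-24). Eif2s1, the alpha subunit that stress kinases phosphorylate, stood at 354, 363 and 336 CPM and 285, 294 and 293 CPM (log2 fold change -0.27, SE 0.0397, adjusted p = 2.9e-08). Eif2s3x, the X-linked gamma subunit that binds GTP and the initiator tRNA, stood at 150.4, 141 and 138 CPM and 207, 196 and 201 CPM (chrX:94188709-94212651; log2 fold change 0.49, SE 0.0469, adjusted p = 1.05e-13). The beta and alpha subunits were thus lower and the gamma subunit higher in every knock-out library, with no overlap for any of the 3.

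Within a library the ratio of Eif2s2 counts to Eif2s3x counts does not depend on scaling. It was 8.13, 8.29 and 8.19 in the wild-type libraries and 3.70, 3.76 and 3.66 in the knock-out libraries, a 2.21-fold fall. The ratio of Eif2s1 to Eif2s3x fell 1.70-fold in the same way, from 2.35, 2.56 and 2.44 to 1.38, 1.50 and 1.46. These are ratios of counts, not of molecules, since the genes differ in length. In all, 15 such pairs were set, after their values had been seen. Of these, 14 did not overlap between the groups, each with an exact two-sided permutation p of 0.1 (adjusted 0.107). A p of 0.1 is the smallest that 3 against 3 libraries can give. As the pairs were picked with values known, their count is a description, and no share over all gene pairs was computed.

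The alternative tRNA carriers also split. Eif2a, a factor distinct from eIF2 despite its name, stood at 174, 164 and 164 CPM in wild-type and 126, 138 and 140.2 CPM in knock-out libraries (log2 fold change -0.31, SE 0.0498, adjusted p = 2.1e-07). Eif2d, which can deliver tRNA without GTP and takes part in recycling, stood at 56.3, 54.5 and 43.7 CPM and 58.1, 60.8 and 60.2 CPM (log2 fold change 0.21, SE 0.0784, adjusted p = 0.0172). Wild-type replicate 3 was the lowest for Eif2d, and without it the log2 fold change was 0.10 with an adjusted p of 0.275. The call was also lost without sg2 (adjusted p = 0.0721) or sg3 (adjusted p = 0.0631).

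The eIF2B complex, which reloads eIF2 with GTP, held 1 subunit that fell, 1 that rose and 3 that were not called. Eif2b3, the gamma subunit, stood at 53.0, 49.2 and 55.9 CPM in wild-type and 39.1, 39.4 and 39.2 CPM in knock-out libraries (log2 fold change -0.42, SE 0.0807, adjusted p = 7.12e-06). Eif2b4, the delta subunit, stood at 19.6, 18.9 and 17.0 CPM and 26.0, 26.6 and 27.3 CPM (log2 fold change 0.52, SE 0.114, adjusted p = 7.1e-05). All knock-out libraries lay below the wild-type range for Eif2b3 and above it for Eif2b4. The ratio of their counts went from 2.70, 2.61 and 3.28 to 1.50, 1.48 and 1.44, a 1.93-fold fall. Eif2b1, Eif2b2 and Eif2b5 had log2 fold changes of -0.08, -0.06 and -0.08, and their groups overlapped. Without wild-type replicate 3, Eif2b5 was called as lower (-0.14, adjusted p = 0.0282).

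Among the 14 tested genes of eIF3, the large scaffold that holds the initiation complex on the small subunit, 7 fell, 3 rose and 4 were not called. The counts were 8 lower and 4 higher with chromosome medians removed, and 2 lower and 7 higher under upper-quartile scaling. The range ran from -0.64 to 0.48 on the log2 scale with a median of -0.08. Eif3d, a subunit that in human cells can bind the cap of some messengers, stood at 431, 424 and 428 CPM in wild-type and 274, 278 and 271 CPM in knock-out libraries (chr15:77958998-77970824; log2 fold change -0.64, SE 0.0382, adjusted p = 8.73e-22). Eif3a, the largest core subunit, stood at 1215, 1199 and 1096 CPM and 813, 827 and 783 CPM (log2 fold change -0.54, SE 0.0349, adjusted p = 3.64e-20). For both genes the groups were wide apart.

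Eif3k and Eif3l, a pair of peripheral subunits that bind each other, moved the other way. Eif3k stood at 131, 126 and 128 CPM in wild-type and 175, 184 and 177 CPM in knock-out libraries (chr7:28971372-28981890; log2 fold change 0.48, SE 0.0479, adjusted p = 3.98e-13). Eif3l stood at 155, 163 and 164 CPM and 192, 196 and 187 CPM (log2 fold change 0.25, SE 0.0458, adjusted p = 3.19e-06). Every knock-out library was above every wild-type library for both. The ratio of Eif3a to Eif3k counts went from 9.31, 9.55 and 8.59 to 4.64, 4.49 and 4.43, a 2.02-fold fall, and that of Eif3d to Eif3l fell 1.86-fold.

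The other eIF3 genes moved less. Eif3f rose, from 146, 150.2 and 143 CPM to 173, 168 and 163 CPM (log2 fold change 0.20, SE 0.0476, adjusted p = 0.000232). Eif3j2, Eif3j1, Eif3e, Eif3m and Eif3g fell, with log2 fold changes of -0.25, -0.22, -0.21, -0.15 and -0.11, and the call of Eif3g, at an adjusted p of 0.0494, was lost under 9 of the 15 alternatives tried, among them the fits without wild-type replicate 1 or 2, sg2 or sg3. Under upper-quartile scaling Eif3e (-0.055, adjusted p = 0.145), Eif3j1 (-0.061, adjusted p = 0.371) and Eif3j2 (-0.089, adjusted p = 0.299) also lost their calls. Eif3j2 lost its call without wild-type replicate 2 (-0.18, adjusted p = 0.0605) and stood at 0.07 (adjusted p = 0.430) with chromosome medians removed. Eif3m and Eif3g turned to 0.0043 and 0.049 under upper-quartile scaling. Eif3j1 and Eif3j2, near-identical copies on chromosomes 2 and 18, had a ratio of 1.62, 1.62 and 1.69 in wild-type and 1.55, 1.71 and 1.76 in knock-out libraries, which overlap. Like the copies of eIF1A, they can share reads. Eif3b, Eif3c, Eif3h and Eif3i were not called, with log2 fold changes of 0.08, -0.03, -0.04 and 0.02. Under upper-quartile scaling all 4 were called as higher (0.23, 0.13, 0.12 and 0.17), and Eif3b also under the stricter filter (0.11, adjusted p = 0.00587). Eif3h was called as lower without wild-type replicate 3 (-0.10, adjusted p = 0.00963), and Eif3c and Eif3h were called as lower, and Eif3b as higher, with chromosome medians removed.

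**Figure D3:**
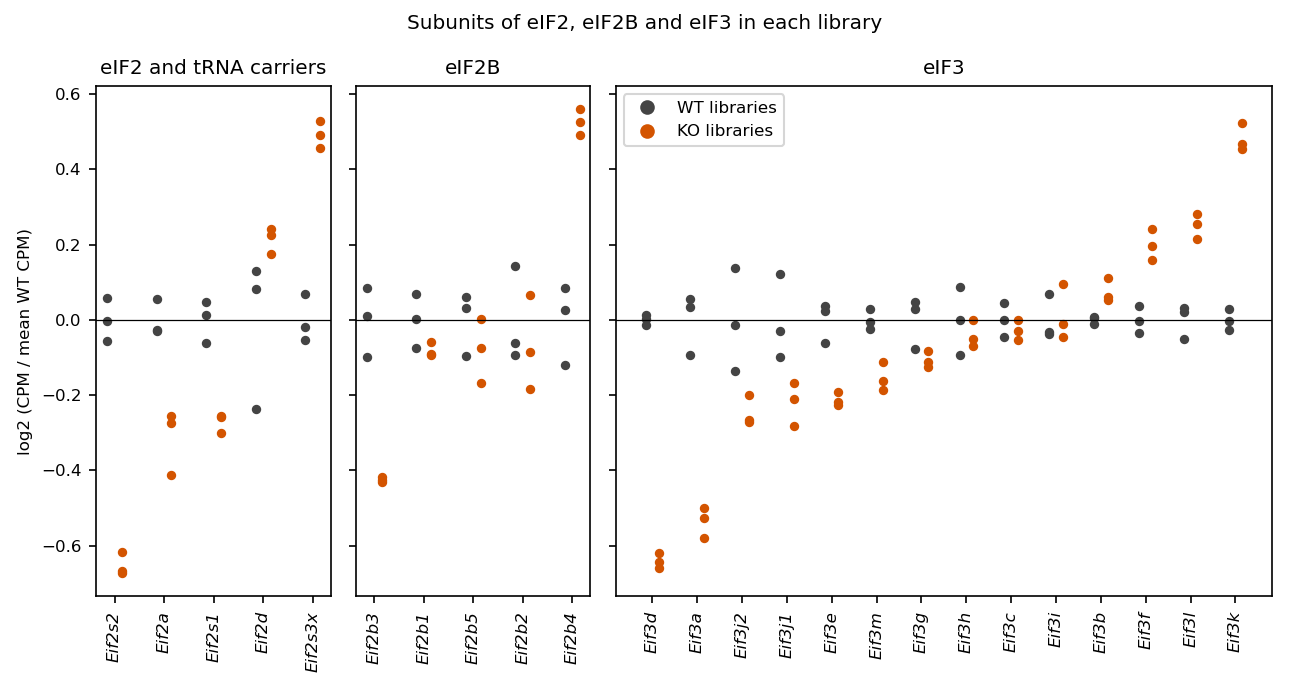
Log2 of the CPM in each library over the mean wild-type CPM (y axis) for the tested genes of eIF2 and the alternative tRNA carriers, eIF2B and eIF3, with grey points for wild-type and orange points for knock-out libraries. Within each of the complexes some subunits sit below and others above the wild-type libraries, from Eif2s2 to Eif2s3x, from Eif2b3 to Eif2b4 and from Eif3d to Eif3k.

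In the eIF4 group, 6 of 9 tested genes fell and none rose in this fit, while Eif4b, Eif4h and Eif4g1 were called as higher under upper-quartile scaling (0.16, 0.13 and 0.09). The share called was 66.7%, beside 66.2% of all genes tested. Eif4e, the cap-binding protein, stood at 362, 354 and 349 CPM in wild-type and 217, 223 and 225 CPM in knock-out libraries, a 1.6-fold fall (chr3:138526191-138559696; log2 fold change -0.68, SE 0.0402, adjusted p = 6.09e-22). Eif4e2, which binds the cap without joining eIF4F and is known as a repressor, stood at 144, 142 and 137 CPM and 95.5, 95.0 and 89.2 CPM (log2 fold change -0.59, SE 0.0535, adjusted p = 1.17e-14). Both cap-binding genes were lower in all 3 knock-out libraries than in any wild-type library.

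The scaffold eIF4G joins the cap-binding protein to the helicase eIF4A. Eif4g1, its main form, stood at 789, 774 and 762 CPM in wild-type and 729, 762 and 728 CPM in knock-out libraries (log2 fold change -0.07, SE 0.0338, adjusted p = 0.0737). Its groups overlapped, and it was not called here, but it was called as lower in limma voom, without a filter and without wild-type replicate 3 or knock-out library sg2. The ratio of Eif4e to Eif4g1 counts was 0.459, 0.457 and 0.458 in the wild-type libraries and 0.298, 0.293 and 0.309 in the knock-out libraries, a 1.53-fold fall. Eif4g3, another scaffold, stood at 47.9, 53.1 and 55.9 CPM and 37.3, 38.8 and 39.2 CPM (log2 fold change -0.44, SE 0.0822, adjusted p = 5.71e-06). Eif4g2, a relative that lacks the eIF4E site, stood at 1897, 1896 and 1853 CPM and 1508, 1504 and 1519 CPM (log2 fold change -0.32, SE 0.0302, adjusted p = 8.27e-14). Both fell with no overlap.

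Eif4a1, the helicase, stood at 1329.9, 1271 and 1249 CPM in wild-type and 1012, 1031 and 1032 CPM in knock-out libraries (log2 fold change -0.32, SE 0.0322, adjusted p = 3.55e-13). Its paralogue Eif4a2 stood at 280.0, 272 and 259.6 CPM and 239, 228 and 225 CPM (log2 fold change -0.23, SE 0.0423, adjusted p = 3.93e-06), and lost its call under upper-quartile scaling (-0.07, adjusted p = 0.107). Both helicase genes were lower in every knock-out library. The helicase cofactors Eif4b and Eif4h had log2 fold changes of -0.0001 and -0.02, overlapped between the groups and were not called. Eif4a3, a relative that marks exon junctions on spliced messengers, fell from 155, 158 and 139 CPM to 121, 124 and 123 CPM (log2 fold change -0.30, SE 0.0516, adjusted p = 1.26e-06).

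Of the proteins that bind eIF4E, Eif4ebp2, a repressor that competes with eIF4G, stood at 22.2, 23.4 and 26.5 CPM in wild-type and 41.0, 36.9 and 39.7 CPM in knock-out libraries (chr10:61428491-61452790; log2 fold change 0.71, SE 0.0985, adjusted p = 7.68e-09). All 3 knock-out values were above the wild-type range, a 1.64-fold rise. The ratio of Eif4e to Eif4ebp2 counts went from 16.3, 15.2 and 13.2 to 5.29, 6.04 and 5.68, a 2.62-fold fall. Their log2 fold changes were -0.53 and 0.35 with chromosome medians removed. Eif4enif1, which carries eIF4E into the nucleus and binds it in granules, stood at 94.0, 93.1 and 89.7 CPM and 72.8, 73.0 and 78.3 CPM (log2 fold change -0.31, SE 0.061, adjusted p = 1.64e-05). Eif4ebp3 held 1 to 3 counts in each library and was not tested.

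Eif6, which keeps the large ribosomal subunit from joining too early, stood at 193, 188 and 199 CPM in wild-type and 153, 139.8 and 145 CPM in knock-out libraries (log2 fold change -0.40, SE 0.0473, adjusted p = 7.18e-11). The groups of Eif6 lay apart, with the knock-out lower. Eif5a, the hypusine-bearing factor that eases stalled elongation, stood at 1310.3, 1327 and 1368 CPM and 1414, 1382 and 1400.1 CPM (log2 fold change 0.07, SE 0.0312, adjusted p = 0.0529). The groups of Eif5a did not overlap, yet they differed by a few percent and the adjusted p lay just over the threshold. It was called as higher with DESeq2 (0.07, adjusted p = 0.0447), with limma voom, under a stricter filter, under upper-quartile scaling, with library size alone and without wild-type replicate 3.

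All 5 tested genes of the eEF1 group fell in this fit, with Eef1d turning to 0.032 under upper-quartile scaling. Eef1a1, the carrier of aminoacyl-tRNA, stood at 9371, 9306 and 8745 CPM in wild-type and 7765, 8312 and 8084 CPM in knock-out libraries (log2 fold change -0.18, SE 0.0286, adjusted p = 1.43e-07). Under upper-quartile scaling its log2 fold change was -0.025 with an adjusted p of 0.381. Its counts alone were 0.890%, 0.888% and 0.848% of the wild-type and 0.811%, 0.864% and 0.841% of the knock-out libraries, shares that do overlap.

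Eef1g, Eef1b2 and Eef1d form the complex that reloads eEF1A. Eef1g, its structural subunit, stood at 1081, 1084 and 1002 CPM in wild-type and 693, 716 and 737 CPM in knock-out libraries (chr19:8967041-8978180; log2 fold change -0.56, SE 0.0346, adjusted p = 3.66e-21). Eef1b2, a subunit that exchanges the nucleotide, stood at 810.1, 814 and 889.6 CPM and 649, 591 and 591 CPM (log2 fold change -0.46, SE 0.0379, adjusted p = 3.09e-15). Both were lower in all knock-out libraries. Eef1d, the other subunit with that activity, stood at 284, 281 and 279.7 CPM and 266, 256 and 253 CPM (log2 fold change -0.13, SE 0.0406, adjusted p = 0.00582). Eef1e1, a scaffold of the multi-tRNA synthetase complex, stood at 112, 118 and 110.3 CPM and 74.9, 78.1 and 73.6 CPM (log2 fold change -0.59, SE 0.0582, adjusted p = 3.75e-13), again with no overlap.

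Eef2, the translocase, and Eef2k, the kinase that phosphorylates and inhibits it, were both higher. Eef2 stood at 2905, 2903 and 2911 CPM in wild-type and 3106, 3207 and 3220.4 CPM in knock-out libraries (chr10:81176631-81182509; log2 fold change 0.13, SE 0.0288, adjusted p = 9.64e-05). Eef2k stood at 19.3, 19.1 and 22.2 CPM and 34.1, 34.5 and 31.0 CPM, a 1.65-fold rise (chr7:120842642-120907219; log2 fold change 0.72, SE 0.107, adjusted p = 3.71e-08). Neither gene overlapped between the groups, but Eef2 reversed to -0.23 once the median of chromosome 10 was removed. The ratio of Eef1g to Eef2 counts went from 0.372, 0.373 and 0.344 to 0.223, 0.223 and 0.229, a 1.61-fold fall, and that of Eef2k to Eef2 rose 1.51-fold. These genes lie on different chromosomes. After removal of chromosome medians the log2 fold changes were -0.40 for Eef1g, -0.23 for Eef2 and 0.64 for Eef2k.

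Of the 4 enzymes taken in by symbol that methylate lysines of these factors, 3 were called as higher. Mettl13, also named Eef1aknmt, was placed in the list of factor modification and was not called (-0.18, adjusted p = 0.0954). With chromosome medians removed only Eef2kmt of these 4 was still called as higher (0.56), since Eef1akmt1 (0.19, adjusted p = 0.133) and Eef1akmt3 (0.81, adjusted p = 0.121) lost their calls and Eef1akmt2 was called as lower (-0.34, adjusted p = 0.0490). Eef2kmt, the methyltransferase of eEF2, stood at 19.5, 21.3 and 20.3 CPM in wild-type and 31.2, 27.9 and 28.3 CPM in knock-out libraries (log2 fold change 0.52, SE 0.109, adjusted p = 3.93e-05). Eef1akmt1, which acts on eEF1A, stood at 20.8, 21.2 and 17.9 CPM and 30.6, 28.3 and 28.3 CPM (log2 fold change 0.54, SE 0.11, adjusted p = 2.82e-05). Knock-out libraries were above the wild-type range for both. Eef1akmt3 stood at 1.02, 0.510 and 0.863 CPM and 2.35, 1.99 and 1.15 CPM (log2 fold change 1.16, SE 0.46, adjusted p = 0.0234), a difference of a few counts that lost its call in DESeq2 (adjusted p = 0.0535) and without wild-type replicate 2, sg1 or sg2 (adjusted p = 0.111, adjusted p = 0.129 and adjusted p = 0.0800). Eef1akmt2 was not called (-0.26, SE 0.156).

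The remaining 6 rows do not name working translation factors. Eif4a-ps4, Eif5al3-ps, Eif1-ps1, Eif3s6-ps1 and Eif3s6-ps2 are named as pseudogenes, and Eif2c5 is annotated by RefSeq as a long non-coding RNA. Eif4a-ps4 stood at 9.82, 11.0 and 11.4 CPM in wild-type and 8.03, 7.52 and 8.17 CPM in knock-out libraries (log2 fold change -0.44, SE 0.174, adjusted p = 0.0237). Its call was lost under 7 of 15 alternatives. Among them were the fits without wild-type replicate 2 or 3 or sg2 (adjusted p = 0.0543, adjusted p = 0.0549 and adjusted p = 0.0655). Others were upper-quartile scaling (-0.28, adjusted p = 0.148), library size alone (-0.32, adjusted p = 0.103) and chromosome medians removed (-0.25, adjusted p = 0.214). Reads of its parent gene may be among its counts. The other 5 held 0 to 6 counts in each library and were not tested.

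The medians of log2 fold change differed between chromosomes, as taken over the 11923 tested genes with a known position. The median log2 fold change of all tested genes was 0.36 on chromosome 10, 0.35 on chromosome 14, -0.36 on chromosome 8, -0.32 on chromosome 18, -0.19 on chromosome 1 and -0.16 on chromosome 19. All 3 factor genes of chromosome 10 were higher (Eef2, Eif4ebp2 and Eef1akmt3), and both of chromosome 18 were lower (Eif1a and Eif3j2), as were all 3 of chromosome 19 (Eif3a, Eif1ad and Eef1g). Chromosome 1 held 3 lower and 1 higher of 5. Lower too were all 4 of chromosome 2 (median 0.02) and all 3 of chromosome 9 (median 0.04). On chromosome 11 (median 0.06) 4 of 5 were lower, and on chromosome 7 (median 0.08) 3 of 6 were higher and 1 lower. With the chromosome medians removed in the same fit, Eif4ebp2 stood at 0.35 in place of 0.71, Eif1a at -0.42 in place of -0.73 and Eef1akmt1 of chromosome 14 at 0.19 in place of 0.54. Eif2a (-0.16), Eif3f (0.12), Eif3l (0.12) and Eef1b2 (-0.26) also came closer to 0 by over 1.5 times, while Eif2d (0.40), Eif3e (-0.35) and Eef1d (-0.26) moved away from it by as much. Of the 31 genes that fell, 29 were still lower, and of the 12 that rose, 9 were still higher. Eef2, called as higher before, was called as lower (-0.23, adjusted p = 6.26e-10). Of the 14 genes not called, 5 became lower and 2 higher, among them Eif5b, which went from -0.07 to 0.12 (adjusted p = 0.0116). Eif1, on chromosome 11 with a median of 0.06, moved only to -1.03, and Eif2s2, on chromosome 2 with a median of 0.02, to -0.68. Whether the differences between chromosomes have a part in the values of the single genes was not tested.

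**Figure D4:**
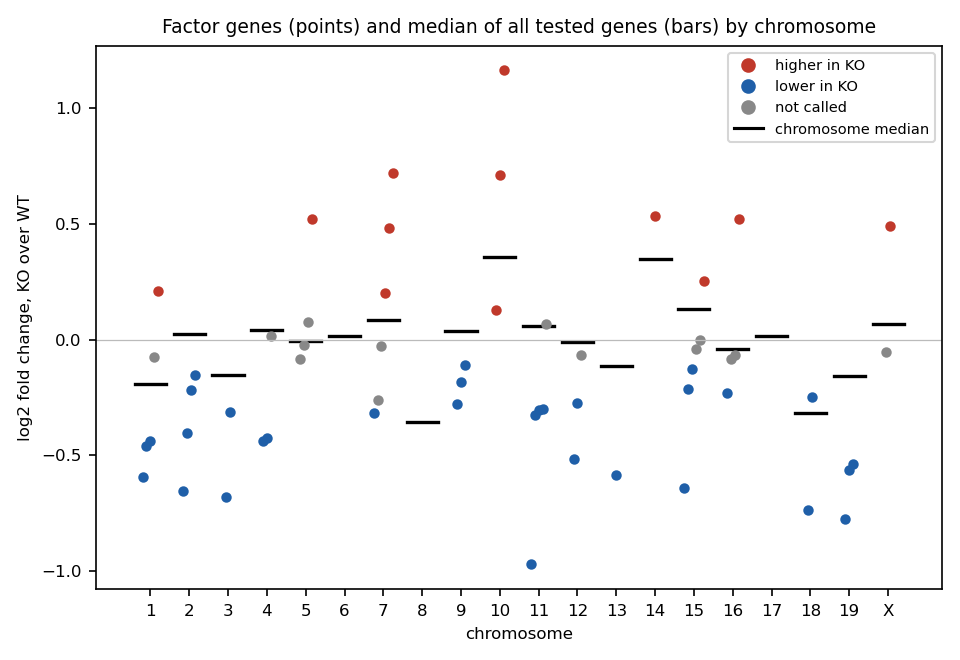
Log2 fold change, knock-out over wild-type (y axis), of each tested factor gene (points) by chromosome (x axis), with black bars for the median of all tested genes of that chromosome. The points of chromosome 10 lie at or above 0.13 around a chromosome median of 0.36, and those of chromosome 18 lie below 0 around a median of -0.32, while Eif1 lies at -0.97 on chromosome 11, whose median is 0.06.

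Around these factors, 79 symbols for other genes of translation and its control were listed by function, some being alternative names of a gene. The count table held 75 of the symbols, and all 75 were tested. Of these 38 fell and 17 rose, with 20 not called, or 28 and 27 under upper-quartile scaling, and their median log2 fold change was -0.16. The called genes made up 73.3% and those past the 1.5-fold line, 25 genes, 33.3%, beside 66.2% and 33.4% of all genes tested. The list of eIF2 kinases and the integrated stress response, the pathway in which phosphorylated eIF2 lowers initiation, held 7 genes that fell and 2 that rose of 10 tested, with a median of -0.77.

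Ppp1r15a, the stress-induced subunit that guides a phosphatase to eIF2, stood at 879, 868 and 859.6 CPM in wild-type and 199.9, 215 and 212 CPM in knock-out libraries, a 4.16-fold fall (log2 fold change -2.06, SE 0.0379, adjusted p = 1.05e-45). Ppp1r15b, the constitutive counterpart, stood at 356, 351 and 342 CPM and 168, 162 and 169 CPM (log2 fold change -1.07, SE 0.0418, adjusted p = 4.04e-30). Both phosphatase subunits were lower in every knock-out library. Of the eIF2 kinases, Eif2ak2, which responds to double-stranded RNA, stood at 322, 302 and 292 CPM and 144, 143 and 150.2 CPM (log2 fold change -1.07, SE 0.0448, adjusted p = 1.09e-28). Eif2ak1, the haem-regulated kinase, stood at 85.9, 94.1 and 95.1 CPM in wild-type and 81.1, 80.9 and 81.3 CPM in knock-out libraries. It fell less (log2 fold change -0.17, SE 0.0605, adjusted p = 0.00987) and lost its call under upper-quartile scaling (-0.02, adjusted p = 0.816). Eif2ak3, the kinase of the endoplasmic reticulum, stood at 19.3, 17.4 and 17.8 CPM in wild-type and 24.4, 19.6 and 22.3 CPM in knock-out libraries (log2 fold change 0.27, SE 0.122, adjusted p = 0.0441). Eif2ak4, which senses uncharged tRNA, stood at 33.8, 30.7 and 37.2 CPM and 35.4, 41.3 and 41.7 CPM (log2 fold change 0.22, SE 0.0927, adjusted p = 0.0315), and its groups overlapped. Both were called as higher, and neither was called by DESeq2 (adjusted p = 0.0764 and adjusted p = 0.0723), without a filter or with chromosome medians removed. With each library left out in turn, the call was lost in 4 of 6 fits for each, for Eif2ak3 without wild-type replicate 2 or 3, sg1 or sg3, and for Eif2ak4 without wild-type replicate 1 or 2, sg2 or sg3.

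In the list of mTORC1, the eIF4E-binding proteins and the MNK kinases, 9 genes fell and 4 rose of 16 tested. Mknk2, a kinase that phosphorylates eIF4E, stood at 27.7, 30.0 and 34.2 CPM in wild-type and 111, 112 and 106 CPM in knock-out libraries, a 3.60-fold rise (log2 fold change 1.85, SE 0.073, adjusted p = 7.25e-30). Rheb, the GTPase that activates mTORC1, stood at 231, 223 and 237 CPM and 161, 148 and 148 CPM (log2 fold change -0.60, SE 0.0459, adjusted p = 2.56e-17). Mknk2 was thus higher and Rheb lower in all knock-out libraries. Eif4ebp1, the paralogue of Eif4ebp2, went the opposite way to it, with 242, 263 and 284 CPM and 186, 192 and 194 CPM (log2 fold change -0.46, SE 0.0462, adjusted p = 5.83e-13). With the median of its chromosome 8 removed its log2 fold change was -0.10.

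Among 13 genes of messenger circularisation and helicase cofactors, 8 fell and 4 rose. Pabpc1, the poly(A)-binding protein that contacts eIF4G, stood at 2480.1, 2506 and 2479 CPM in wild-type and 3150.2, 3335 and 3229 CPM in knock-out libraries (log2 fold change 0.38, SE 0.0294, adjusted p = 3.91e-17), and at a log2 fold change of 0.25 with its chromosome's median removed. Dhx36, a helicase of quadruplex structures, stood at 241, 235 and 222 CPM and 138, 144 and 141 CPM (log2 fold change -0.72, SE 0.0458, adjusted p = 1.12e-20). The groups of both genes lay apart, in opposite directions.

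Of 12 tested genes of termination, recycling and rescue, 9 fell and none rose in this fit. Their share called was 75%, beside 66.2% of all genes tested. Gtpbp2, a GTPase of ribosome rescue, stood at 224, 222 and 234 CPM in wild-type and 80.4, 79.1 and 72.4 CPM in knock-out libraries, a 2.93-fold fall (log2 fold change -1.55, SE 0.0512, adjusted p = 1.53e-33). Abce1, which splits the ribosome after termination, stood at 691, 701 and 656 CPM and 347, 352 and 351 CPM (log2 fold change -0.97, SE 0.0365, adjusted p = 9.89e-31), and at a log2 fold change of -0.61 with the median of chromosome 8 removed. Neither gene overlapped between the groups.

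Of 14 genes of factor modification, 4 fell, 2 rose and 8 were not called. The called share of 42.9% lay under the 66.2% of all genes tested. Dhps, which makes the first step of hypusine on eIF5A, stood at 59.2, 56.5 and 50.0 CPM in wild-type and 37.8, 32.8 and 33.7 CPM in knock-out libraries (log2 fold change -0.67, SE 0.0846, adjusted p = 5.17e-10), and at a log2 fold change of -0.32 with the median of chromosome 8 removed. Dph5, an enzyme of diphthamide on eEF2, stood at 58.0, 64.5 and 58.9 CPM and 34.8, 34.5 and 38.7 CPM (log2 fold change -0.75, SE 0.0807, adjusted p = 5.74e-12). Both modification enzymes were lower in every knock-out library.

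The factors of mitochondrial translation showed 5 higher and 1 lower of 10 tested, with a median log2 fold change of 0.16. That is 60% called, beside 66.2% of all genes tested. Gfm1, the mitochondrial counterpart of eEF2, stood at 138, 146 and 130.5 CPM in wild-type and 194, 192 and 193 CPM in knock-out libraries (log2 fold change 0.48, SE 0.0477, adjusted p = 3.27e-13). Tufm, the counterpart of eEF1A, stood at 49.2, 44.4 and 47.4 CPM and 59.9, 65.3 and 75 CPM (log2 fold change 0.50, SE 0.0775, adjusted p = 1.02e-07). Knock-out libraries were above the wild-type range for both genes.

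**Figure D5:**
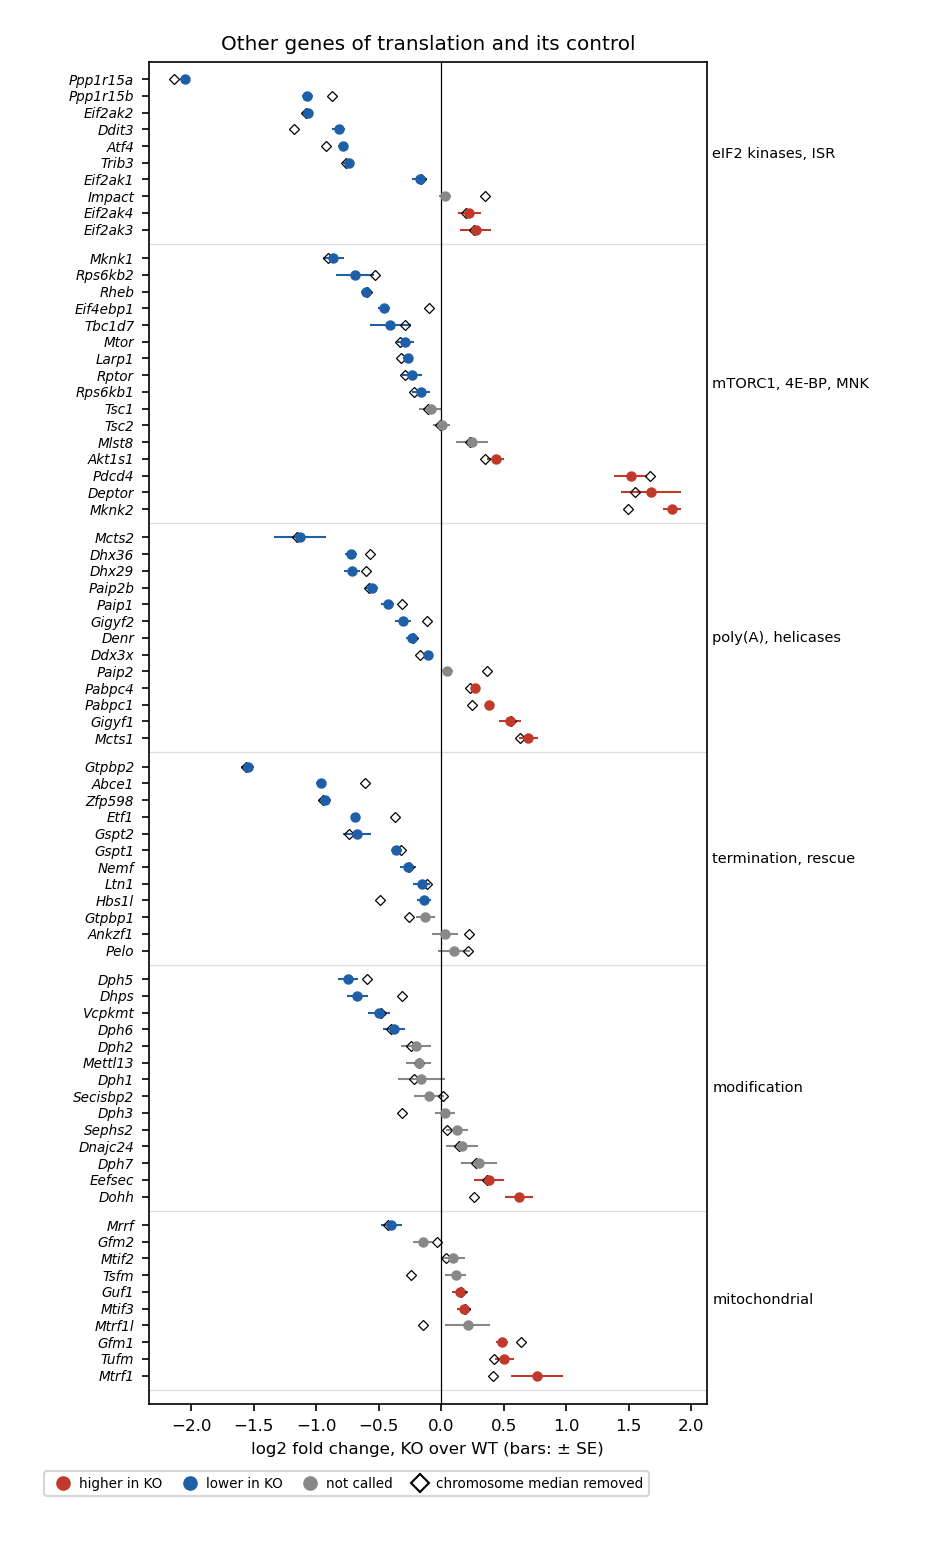
Log2 fold change, knock-out over wild-type (x axis), of the 75 tested genes of 6 lists around the factors, with bars for ± SE, colours for the call and open diamonds for the value after the chromosome median was removed. Ppp1r15a, at -2.06, is the farthest to the left and Mknk2, at 1.85, the farthest to the right, and the mitochondrial list has 5 red points and 1 blue point.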

How the data were processed

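The deposited table holds raw read counts, whole numbers, for 17718 Ensembl genes. Every row had counts in at least 3 libraries, so genes with counts in fewer are not among its rows. The kit was directional, per the labels' protocols. The submitters' processing notes list the tools STAR, HTSeq, fastp, SEACR, Bowtie2 and deepTools and the build mm10. Not given in the sources used here: what each tool did, its version, the gene annotation release and whether counting used strand. Wild-type columns were matched to samples by group and number, and the knock-out columns to their group only. Since separate cultures are not stated, the p-values cover the spread between these libraries, which can be technical.

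Counts were filtered with edgeR's filterByExpr (minimum count 10), scaled with TMM factors and tested with the quasi-likelihood F test, robust (edgeR 4.0.16, limma 3.58.1, R 4.3.3). Benjamini-Hochberg adjustment ran over the 13013 tested genes, with 0.05 as the threshold. The main edgeR fit alone was also run on simulated counts, in which few genes changed, equally in both directions. That setting differs from these data, so it says nothing about the choice of scaling. Every log2 fold change is that of the knock-out relative to wild-type, its SE is from the F statistic, and 1 count is worth 0.0746 to 0.105 CPM before TMM scaling. The alternatives were DESeq2 1.42.0, limma voom, other scalings and filters, an adjusted p of 0.01, each library left out and the chromosome medians removed. Positions and promoters are from RefSeq on GRCm38.p6, and exact permutation tests from scipy 1.17.1.

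The factor genes and the lists around them were chosen with earlier results of these data known. Values in every library follow a rule: genes past the threshold and 1.5-fold, the 2 with the smallest p in a role without such a gene, 8 core factors of which Eef1a2 was not analysed here, and of each other list the 2 with the smallest p plus Eif4ebp1 and Eif2ak1 to Eif2ak4. Library values of further factor genes, and the ratios, were added after values were seen.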

Additional observations from a re-analysis of the deposited data

How the results depend on the processing

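No paired analysis was possible because the knock-out columns carry no replicate number that the labels tie to a sample. Counts of genes called stayed within 1.5 times under every alternative but upper-quartile scaling, which gave 21 factor genes and 27 companion genes as higher. The median log2 fold change of the factor genes was -0.025 under that scaling, -0.061 with library size alone and -0.17 both with no filter and with a stricter one. Since these scalings moved the median of all genes from 0.02 to 0.17 and 0.14, signs of small changes turn with them by construction. With 1 library left out at a time, 10 to 12 factor genes were higher and 28 to 32 lower, 13 to 16 companion genes higher and 34 to 39 lower, and the median ran from -0.22 to -0.16.

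Signs turned under upper-quartile scaling for Eef1d (0.032), Eif1ax (0.10), Eif2b1 (0.075), Eif2b2 (0.093), Eif2b5 (0.075), Eif3c (0.13), Eif3g (0.049), Eif3h (0.12), Eif3m (0.0043), Eif4b (0.16), Eif4g1 (0.090), Eif4h (0.13) and Eif5b (0.083). With library size alone they turned for Eif1ax (0.068), Eif2b1 (0.039), Eif2b2 (0.057), Eif2b5 (0.039), Eif3c (0.094), Eif3g (0.013), Eif3h (0.080), Eif4b (0.12), Eif4g1 (0.054), Eif4h (0.098) and Eif5b (0.047). A stricter filter turned Eif3c (0.0039), Eif4b (0.031) and Eif4h (0.0078), and no filter turned Eif3i (-0.0016). Removing chromosome medians turned Eef2 (-0.23), Eif3i (-0.027), Eif3j2 (0.070) and Eif5b (0.12). Leaving out 1 library gave ranges across 0 for Eif2b2 (-0.15 to 0.0053), Eif3h (-0.098 to 0.0020), Eif3i (-0.039 to 0.045) and Eif4b (-0.054 to 0.032). For the filters and the libraries left out, the cause was not tested.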
